A study of Mus musculus with 4 samples.

Results

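The coagulation, fibrinolysis and complement genes measured here were 48 named members: clotting factors, their inhibitors and receptors, the plasminogen system, and complement proteins with their regulators. They were found as all probe sets annotated to exactly 1 gene symbol, that symbol being a member. This gave 66 of 45101 probe sets, covering 44 of the 48 genes, and 41 genes had a probe set bright enough to test, out of 13718 tested genes in all. No probe set carried C3, Cfd or Serpine2 as its only symbol, and the probe set for C4b also carried another symbol, so these 4 genes were not represented. F9, C4bp and Masp2 had only dim probe sets, below the filter on low values.

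Clotting runs through a cascade of plasma proteases that ends in thrombin, which turns fibrinogen into fibrin. Plasmin, made from plasminogen by tissue-type and urokinase-type activators, dissolves that fibrin, and the complement cascade is a parallel set of plasma proteases that marks and lyses targets. Hepatocytes make most of the circulating zymogens, whereas endothelium, epithelium and stroma carry the initiators, receptors and membrane-bound inhibitors that keep both cascades in check at their own surface.

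The tissue of interest was ureter from postnatal day 1 mice, 3 arrays, unpooled, all male, strain FVB/N, carrying an SMGA/EGFP transgene named for Actg2, the enteric smooth muscle actin. It was set against 1 array of pooled whole FVB/N newborns of postnatal day 1, of both sexes and with no transgene. RNA of all 4 samples went through 2 rounds of amplification before hybridisation to Affymetrix MOE430 arrays. The labels call the ureters unpooled but name no animals, so a p-value here reflects the spread of these 3 samples, which may be technical, and the pool, with 1 array, was assumed to vary as the ureters did. Tissue, transgene, sex and pooling change together between the groups and cannot be told apart. In whole tissue, fewer cells of a type and less RNA per cell cannot be told apart either.

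Intensities as deposited had medians of 154, 259 and 187 in ureters 1, 2 and 3, against 332 in the pool, and were quantile normalized. Background was set on each array at its brightest unspiked bacterial probe set, which lay at 89.2, 180 and 127 in ureters 1 to 3 and at 120 in the pool. The tissue label was checked against marker lists: 4 of 5 urothelial genes and 5 of 5 smooth muscle genes were higher in ureter, as were 2 of 5 mesenchymal and fibroblast genes. Without ureter 3 these counts were 2, 2 and 1. Of 7 tested hepatocyte genes 6 were lower in ureter (4 without ureter 3 and 7 without ureter 1). Their summed intensities were 3712, 9203 and 8108 in the ureters against 320416 in the pool. Of this list Apoa1, Apob and Ahsg lay at background in all 3 ureters, and Apoa2 in 1. Alb, Afp and Ttr were above background in all 3. Alb read 123, 1080 and 1067 in the ureters against 80415 in the pool. Afp read 160, 6646 and 4623 against 62870 in the pool, and Ttr read 3156, 1226 and 1996 against 63345.

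Among 41 tested members, 16 were lower in ureter and 1 was higher, at an adjusted p under 0.05. Over all tested genes 4.85% were lower and 3.04% were higher. Every lower member was a liver-made plasma factor: 16 of 26 tested, with a median log2 difference (ureter minus pool) of -5.31. The 15 tested members made at least partly in local tissues held the 1 higher call, Procr, and 0 lower ones, with a median log2 difference of 0.70. No locally made member had an unadjusted p under 0.05 in the lower direction, and 3 had one in the higher. Over all 13718 tested genes 1722 had one in the lower direction and 1894 in the higher. The median log2 difference of all tested genes was 0.10. For 22 of the 26 liver-made members all 3 ureters lay below the pool, against 30.7% of all tested genes, and for 11 of the 15 locally made members all 3 lay above it, against 39.9%. The filter on low values used the mean of the ureter mean and the pool value. Of the 26 liver-made members 9 had all 3 ureters at background, against 360 of 13718 tested genes. Such members passed the filter mainly through the pool and had little room to come out higher. The counts and median of liver-made members are therefore not like for like with all tested genes. Summed over the locally made members, intensity was 70592, 76442 and 71452 in the ureters, against 54271 in the pool. The division by source was a choice made for this report and does not follow the main site of synthesis for every gene. Several of the locally made proteins, Serping1 and Clu among them, are secreted by liver as well. The contrast between the groups depends in part on where such genes were placed.

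**Figure D1:**
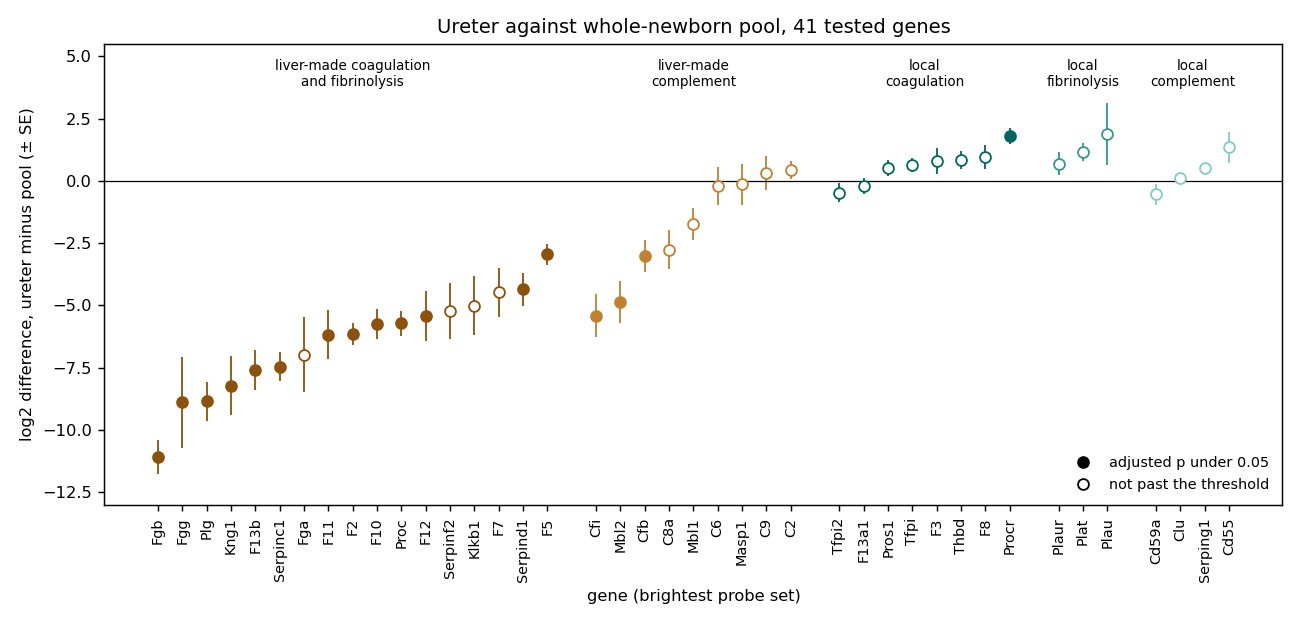
Log2 difference of ureter minus whole-newborn pool for 41 tested genes (y axis, brightest probe set of each gene, bars ± SE from the fit), grouped by role and ordered within each. Filled points passed an adjusted p of 0.05: 16 liver-made genes below 0 and Procr above it.

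Promoters of all members with an entry were searched, whether or not a member was tested or called. In a RefSeq table (GRCm38.p6) of 300-base promoters, from 250 bases before to 50 bases after each start, 23 liver-made members had an entry, and 12 locally made members had 16. The HNF1 motif GTTAATNAT, a site of a factor abundant in liver and kidney epithelium, was searched on both strands. It was found in 3 of the 23 liver-made promoters (13%), those of C4bp, F13b and Fga, in 0 of the 16 locally made ones, and in 263 of all 32851 promoters (0.801%). Of these 3 genes F13b was called lower in ureter, Fga missed the threshold and C4bp was not tested. A link of the motif to the ureter levels was not tested. Capitals mark the match, and the 3 sequences run 5′ to 3′ along the gene, at chr1:130661569-130661868 (minus strand), chr1:139501457-139501756 (plus strand) and chr3:83025903-83026202 (plus strand).
C4bp: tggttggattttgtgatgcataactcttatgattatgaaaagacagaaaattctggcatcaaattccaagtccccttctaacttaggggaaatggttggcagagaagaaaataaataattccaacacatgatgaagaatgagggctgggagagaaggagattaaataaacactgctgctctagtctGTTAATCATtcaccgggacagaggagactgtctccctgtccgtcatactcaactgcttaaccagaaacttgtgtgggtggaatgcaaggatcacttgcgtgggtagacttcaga
F13b: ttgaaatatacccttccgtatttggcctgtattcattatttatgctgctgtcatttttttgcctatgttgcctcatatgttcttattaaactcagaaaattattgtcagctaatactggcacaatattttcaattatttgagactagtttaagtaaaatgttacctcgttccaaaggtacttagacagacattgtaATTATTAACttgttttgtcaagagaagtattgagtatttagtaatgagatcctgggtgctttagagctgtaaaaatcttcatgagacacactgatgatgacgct
Fga: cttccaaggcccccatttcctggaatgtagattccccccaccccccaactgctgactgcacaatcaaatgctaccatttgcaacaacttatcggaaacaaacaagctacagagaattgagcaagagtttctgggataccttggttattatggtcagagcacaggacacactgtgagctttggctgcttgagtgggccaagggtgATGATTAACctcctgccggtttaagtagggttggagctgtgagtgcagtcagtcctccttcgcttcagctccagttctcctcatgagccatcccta
The match ends 56 bases before the start in C4bp, 46 bases before it in F13b and 38 bases before it in Fga, on the reverse strand in F13b and Fga. The HNF4 motif CAAAGTCCA (0.475% of all promoters) and the C/EBP motif TTGCGCAAT (0.0487%) were in 0 promoters of either set. TATAAA was in 2 liver-made and 2 locally made promoters and in 13.6% of all. The Sp1 motif GGGCGG was in 2 of 23 liver-made and 8 of 16 locally made promoters, against 35.7% of all. In some promoters Sp1 matches overlapped one another; no HNF1 match overlapped another motif. A match is a string of letters, and binding was not measured.

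Fibrinogen, the substrate of thrombin, is built from the Fga, Fgb and Fgg chains. Fgb showed the largest difference of any member: its intensity was 4.41, 12.5 and 10.6 in the 3 ureters, against 46012 in the pool. All 3 ureters were at background, so it was at least 330.3-fold lower in ureter, a bound set against the arrays' background (log2 difference -11.09 ± 0.70 SE, adjusted p = 0.0048). Fgg read 3.47, 363 and 397 in the ureters, against 63841 in the pool. Ureters 2 and 3 were above background and ureter 1 was not, and Fgg was lower in ureter (log2 difference -8.90 ± 1.81, adjusted p = 0.0438). Without ureter 1 the log2 difference was -7.31 (adjusted p = 0.00210), without ureter 2 it was -9.60, and without ureter 3 it was -9.71 (adjusted p = 0.0883). No fold is given for genes with some but not all ureters at background, and folds of the others are from means of log2 values with the offset. Fga gave 6.49, 173 and 308 in the ureters and 12981 in the pool, a log2 difference of -6.97 ± 1.51 that missed the threshold (adjusted p = 0.0511) and passed it without ureter 1 (adjusted p = 0.00542). For each chain every ureter lay far below the pool. Ureters 1 and 2 were at background for Fga, and for Fgg ureter 1 alone was.

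Prothrombin, encoded by F2, read 283, 221 and 213 in the ureters, all above background, against 17532 in the pool. The ureters did not overlap the pool, and the 70.4-fold lower level (log2 difference -6.14 ± 0.43, adjusted p = 0.00512) was called under every alternative run. F5, the cofactor that speeds prothrombin activation, had the smallest difference of the 17 tested coagulation and fibrinolysis genes made by liver. It read 728, 513 and 578 in the ureters, against 4702 in the pool (7.70-fold lower, log2 difference -2.94 ± 0.42, adjusted p = 0.0189). Its call was lost without ureter 3 (adjusted p = 0.0887) and with arrays centred on their medians (adjusted p = 0.0705). The second F5 probe set, at background in all 3 ureters, differed by -4.09 on the log2 scale and was not called (adjusted p = 0.0702). F10, the protease that cleaves prothrombin, read 76.2, 89.0 and 159 in the ureters, 2 of them at background, and 6102 in the pool. It was lower in ureter (log2 difference -5.73 ± 0.60, adjusted p = 0.0096), and its other tested probe set was lower too.

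The upstream proteases were near or below the detection limit in ureter. F11 read 4.75, 41.6 and 28.8 in the ureters against 2401 in the pool, at least 17.3-fold lower. F12, which starts contact activation, read 7.09, 14.5 and 14.1 against 1014 in the pool, at least 7.36-fold lower. Both passed the threshold (log2 differences -6.17 ± 0.98 and -5.43 ± 1.01, adjusted p = 0.0236 and 0.0343) and lost it without ureter 3 (adjusted p = 0.0791 and 0.0952). Without ureter 1 the log2 difference of F11 was -5.52. F7, the partner of tissue factor, read 13.3, 42.2 and 17.2 in the ureters against 749 in the pool. Its log2 difference of -4.47 ± 0.98 was not called (adjusted p = 0.0531), though it was without ureter 2 (adjusted p = 0.0429). Klkb1, plasma prekallikrein, was likewise at background in all 3 ureters, at 6.94, 8.95 and 74.5, against 1040 in the pool (log2 difference -5.00 ± 1.19, adjusted p = 0.0645). F9, too dim to be tested, read 52.9, 55.8 and 7.96 in the ureters, all at background, and 161 in the pool.

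Kng1, the kininogen that carries prekallikrein and yields bradykinin, read 26.3, 272 and 285 in the ureters, against 44102 in the pool. It was lower in ureter (log2 difference -8.22 ± 1.18, adjusted p = 0.0189, and 0.0526 without ureter 3). Ureter 1 was at background, and without it the log2 difference was -7.15 (adjusted p = 0.00210). A second Kng1 probe set read 120, 105 and 118 in the ureters, 2 of them at background, against 14310 in the pool (log2 difference -6.83 ± 0.46, adjusted p = 0.00512). F13b, the carrier subunit of the fibrin-crosslinking factor XIII, was at background in every ureter, at 26.1, 19.2 and 9.66, against 5748 in the pool. This was at least 41.3-fold lower (log2 difference -7.60 ± 0.80, adjusted p = 0.0096).

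Plasminogen, encoded by Plg, was also at background in every ureter: 17.8, 63.2 and 85.4, against 27871 in the pool. It was at least 200.1-fold lower (log2 difference -8.85 ± 0.78, adjusted p = 0.00641, and -8.19 without ureter 1). Serpinf2, antiplasmin, read 54.1, 429 and 441 in the ureters and 8766 in the pool. Ureter 1 alone was at background, and the log2 difference of -5.21 ± 1.13 missed the threshold (adjusted p = 0.0513) but passed it without ureter 1 (adjusted p = 0.00703) or without ureter 2 (adjusted p = 0.0429).

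The liver-made anticoagulants lay below the pool in ureter, as the tested liver-made clotting factors did. Serpinc1, antithrombin, was lower in ureter (log2 difference -7.45 ± 0.59, adjusted p = 0.00575), with 120, 58.9 and 134 in the ureters against 19470 in the pool. Proc, protein C, was lower too (log2 difference -5.72 ± 0.49, adjusted p = 0.00609), with 113, 157 and 128 against 7560 in the pool. Serpind1, heparin cofactor II, had the smallest difference of these anticoagulants (log2 difference -4.35 ± 0.65, adjusted p = 0.0209), with 177, 112 and 319 against 4035 in the pool. In each of the 3 genes 1 ureter was at background and none came near the pool.

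In all, 13 of 17 tested liver-made coagulation and fibrinolysis genes were lower in ureter (76.5%, against 4.85% of all tested genes). Log2 differences of the 17 lay between -11.09 and -2.94, with a median of -6.14. The other 4, Fga, F7, Klkb1 and Serpinf2, had all 3 ureters below the pool without passing the threshold. All 3 ureters lay below the pool in 30.7% of all tested genes. Without ureter 3, 8 of the 17 were called, against 268 lower among all 27022 probe sets. For 7 of the 17 all 3 ureters were at background. Such genes passed the filter mainly through the pool, so these shares are not like for like. On the pool array all 17 were above background, and on ureters 1, 2 and 3 this held for 5, 5 and 10 of them. Summed intensity over the 17 genes was 1668, 2591 and 3202 in the ureters, against 273926 in the pool. Hepatocyte markers moved the same way, and their part in the result was not tested.

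**Figure D2:**
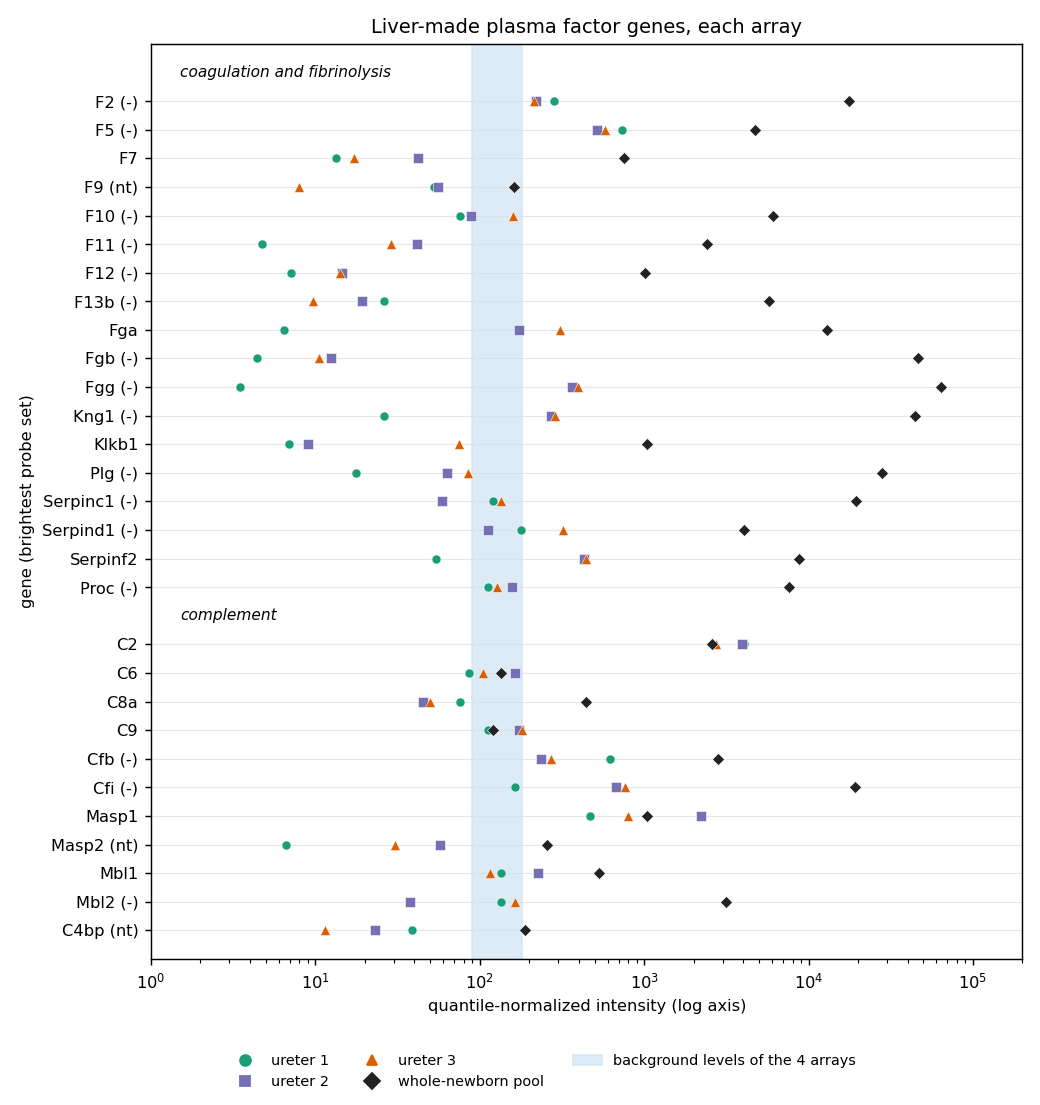
Quantile-normalized intensity (log axis) of liver-made coagulation, fibrinolysis and complement genes on each array, with ureters as coloured symbols and the whole-newborn pool as black diamonds; the shaded band spans the background levels of the 4 arrays. A minus sign marks the 16 genes called lower and nt the 3 not tested, and for Fgb, Plg and F13b every ureter lies at or below the band.

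Liver-made complement genes split. Of 9 tested, 3 were lower in ureter (33.3%, against 4.85% of all tested genes), 0 were higher at an adjusted or an unadjusted p under 0.05, and the median log2 difference was -1.73. Cfi, the protease that inactivates the complement opsonins, read 164, 670 and 767 in the ureters, against 19203 in the pool. All 3 ureters were above background and well below the pool, 42.3-fold lower by means of log2 values (log2 difference -5.40 ± 0.87, adjusted p = 0.0241). Without ureter 1 the log2 difference was -4.63 (adjusted p = 0.00389). Mbl2, a mannose-binding lectin that starts the lectin pathway, read 135, 37.5 and 164 in the ureters and 3148 in the pool (lower in ureter, log2 difference -4.86 ± 0.84, adjusted p = 0.0291), with ureter 2 at background. Cfb, the protease of the alternative pathway convertase, read 617, 234 and 270 in the ureters and 2826 in the pool (8.06-fold lower, log2 difference -3.01 ± 0.64, adjusted p = 0.0496). None of these 3 calls held without ureter 3, where the adjusted p was 0.0625 for Cfi, 0.0776 for Mbl2 and 0.165 for Cfb, and Cfb also lost its call without ureter 2 (adjusted p = 0.0532).

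C2, the protease of the classical and lectin pathway convertase, stood apart from the plasma factors above. It was well above background in ureter, at 4039, 3955 and 2747, against 2601 in the pool. Every ureter lay above the pool, ureter 3 only just, and the log2 difference of 0.44 ± 0.38 was not called (adjusted p = 0.539). Its other 2 probe sets differed by 0.59 and 0.39, also without a call. Mbl1, the second mannose-binding lectin, read 134, 225 and 116 in the ureters and 532 in the pool, with ureters below the pool and no call (log2 difference -1.73 ± 0.64, adjusted p = 0.170).

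Masp1 encodes a lectin pathway protease with alternative transcripts, and its 5 probe sets disagreed. The brightest read 470, 2214 and 799 in the ureters around 1041 in the pool (log2 difference -0.14 ± 0.83, adjusted p = 0.94). Another read 320, 156 and 268 in the ureters, all below the 1532 of the pool, and just missed the threshold (log2 difference -2.63 ± 0.57, adjusted p = 0.0529). A further one read 410, 658 and 806 in the ureters, all above the 323 of the pool (log2 difference 0.87 ± 0.54, adjusted p = 0.385). The transcripts these probe sets read were not resolved here.

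The terminal components that form the membrane attack pore were dim. C8a was at background in all 3 ureters, at 75.9, 44.9 and 49.5, against 446 in the pool (log2 difference -2.76 ± 0.79, adjusted p = 0.0989). C6 read 86.5, 165 and 105 in the ureters, all at background, around 134 in the pool, and C9 read 112, 174 and 180 around 120 in the pool. Their log2 differences, -0.21 ± 0.75 and 0.31 ± 0.69, were smaller than their errors. C4bp, a soluble inhibitor of the classical pathway, was not tested, with 38.8, 23.0 and 11.4 in the ureters, all at background, and 187.5 in the pool. Both Masp2 probe sets were at background in all 3 ureters as well and were not tested.

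Genes of local origin were above background throughout, all 15 tested on all 4 arrays. Procr, the endothelial receptor that presents protein C to thrombin and thrombomodulin, read 4579, 4855 and 5070 in the ureters, against 1375 in the pool. The ureters averaged 4835 ± 246 (SD, n = 3), clear of the pool, and Procr was 3.49-fold higher in ureter (log2 difference 1.80 ± 0.32, adjusted p = 0.0298). The call was lost without ureter 3 (adjusted p = 0.157), with arrays centred on their medians (adjusted p = 0.0533) and without the intensity trend in the fit (adjusted p = 0.0700), while the sign was kept. Of 6 tested endothelial marker genes 1 was higher in ureter, Tek (16.7%, against 3.04% of all tested genes). The list summed to 14529, 17070 and 14933 in the ureters against 9583 in the pool. Of these sums Tek alone made up 6455, 6556 and 5271 in the ureters against 1461 in the pool. Log2 differences were above 0 for 5 of the 6 genes, and those of Cdh5 and Kdr were -0.004 and 0.09. The part of endothelium in the Procr result was not tested. Of 4 markers of mesothelium, which coats the outside of abdominal organs, 2 were higher, Upk3b and Wt1 (50%, against 3.04% of all tested genes). The list summed to 30155, 20380 and 15723 in the ureters against 2186 in the pool. Upk3b alone made up 24045, 13018 and 12587 of these sums in the ureters and 1454 in the pool. Without ureter 3 neither list had a call.

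The other members that restrain or start clotting at the cell surface were not called. Thbd, thrombomodulin, read 1770, 1796 and 2012 in the ureters, all above the 1031 of the pool (log2 difference 0.84 ± 0.37, adjusted p = 0.232). F3, tissue factor and the initiator of clotting, read 2079, 1040 and 2024 in the ureters and 947 in the pool (log2 difference 0.78 ± 0.52, adjusted p = 0.421), with ureter 2 close to the pool. Pros1, protein S, the cofactor of activated protein C, read 4235, 4627 and 4049 in the ureters, narrowly spread and above the 2993 of the pool (log2 difference 0.52 ± 0.31, adjusted p = 0.369). F8, the antihaemophilic cofactor, made largely by endothelium, read 474, 369 and 439 in the ureters and 211 in the pool (log2 difference 0.97 ± 0.49, adjusted p = 0.289). All 3 ureters lay above the pool in each of these 4 genes, as they did in 39.9% of all tested genes.

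Tfpi, the inhibitor of tissue factor and factor Xa, had 4 probe sets, all above 0 and none called. The brightest read 6304, 5458 and 6486 in the ureters, against 3904 in the pool (log2 difference 0.63 ± 0.29, adjusted p = 0.253). The dimmest differed most: 1255, 2742 and 857 in the ureters, against 167 in the pool (log2 difference 3.01 ± 0.69, adjusted p = 0.0583). With the probe sets averaged, Tfpi was called higher (log2 difference 1.24, adjusted p = 0.0445). Tfpi2, a related inhibitor of matrix and plasma proteases, lay on the other side, at 1751, 1373 and 1716 in the ureters, all below the 2223 of the pool (log2 difference -0.47 ± 0.38, adjusted p = 0.512). F13a1, the catalytic subunit of factor XIII, made by macrophages and related cells, read 11712, 12069 and 7752 in the ureters around 11833 in the pool (log2 difference -0.20 ± 0.33, adjusted p = 0.768). Centring the arrays on their medians turned the signs of Tfpi2 and F13a1, to 0.23 and 0.66. Macrophage markers had 1 of 6 genes lower, Csf1r (16.7%, against 4.85% of all tested genes). Their sums were 32226, 30306 and 25001 in the ureters and 52344 in the pool. Without ureter 3 the list had 0 calls.

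Of the factor XIII subunit genes, F13b was at background in ureter, and F13a1 was well above background on every array. Protein was not measured, and the levels of these genes were not compared by test. In the protein C system the zymogen gene, Proc, was lower, and the receptor gene, Procr, was higher.

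**Figure D3:**
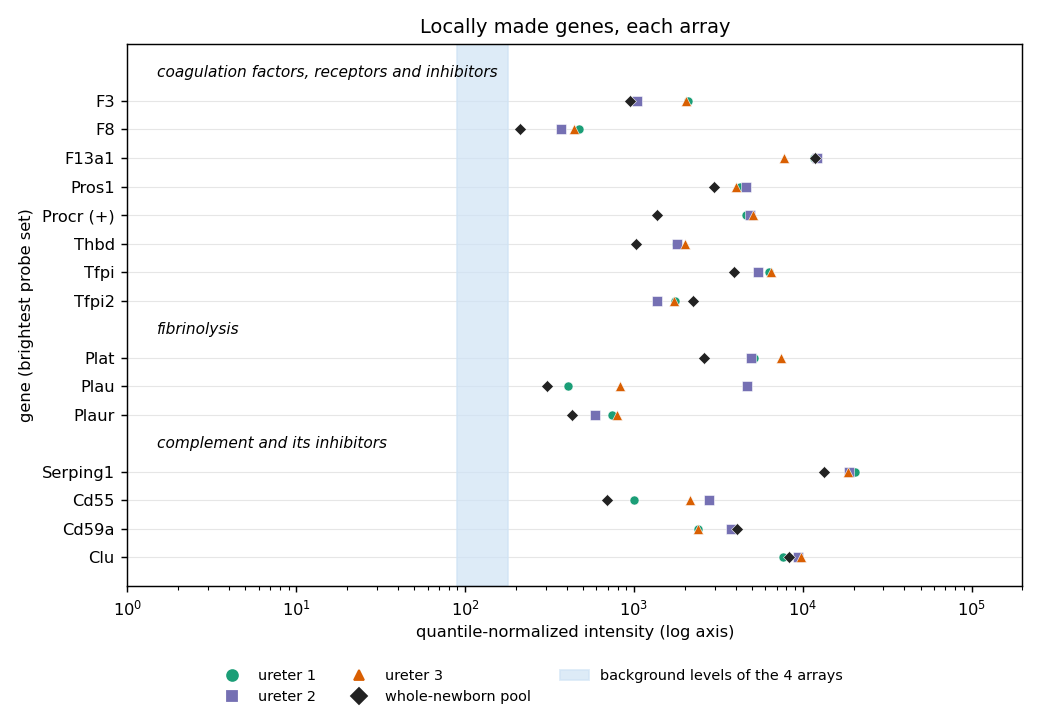
Quantile-normalized intensity (log axis) of the locally made coagulation, fibrinolysis and complement genes on each array, with ureters as coloured symbols, the whole-newborn pool as black diamonds and background levels as a shaded band. All 15 genes lie above the band on every array, and Procr, marked with a plus sign, has its 3 ureters clear of the pool.

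The activators of plasminogen and the urokinase receptor lay above the pool in ureter, and none was called. Plat, tissue-type activator, read 5160, 4960 and 7446 in the ureters, all above the 2597 of the pool (log2 difference 1.14 ± 0.36, adjusted p = 0.123). Plau, urokinase, read 405, 4666 and 825 in the ureters and 306 in the pool, an 11.2-fold range among ureters (log2 difference 1.89 ± 1.25, adjusted p = 0.416). Plaur, the urokinase receptor, read 737, 587 and 798 in the ureters and 427 in the pool (log2 difference 0.70 ± 0.45, adjusted p = 0.398). All 3 ureters exceeded the pool in each gene, as they did in 39.9% of all tested genes. Dimmer second probe sets of Plat and Plau pointed down (log2 differences -0.44 and -1.45, neither called). Of the 3 genes 1, Plat, had an unadjusted p under 0.05.

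The complement inhibitors were well above background in ureter, and none of the 4 tested was called on its brightest probe set, although Serping1 had an unadjusted p under 0.05. Serping1, the C1 inhibitor, which also blocks kallikrein and factor XII, read 20311, 18802 and 18594 in the ureters, against 13431 in the pool. The ureters averaged 19236 ± 937 (SD, n = 3), above the pool, with no call (log2 difference 0.52 ± 0.20, adjusted p = 0.187). Clu, clusterin, a chaperone that also binds terminal complement, read 7682, 9314 and 9715 around 8246 in the pool (log2 difference 0.10 ± 0.27, adjusted p = 0.862), and its other 3 probe sets lay between 0.14 and 0.75 without a call. Cd59a, the membrane inhibitor of the attack pore, read 2394, 3756 and 2387 in the ureters, all below the 4051 of the pool (log2 difference -0.54 ± 0.41, adjusted p = 0.474). A second Cd59a probe set lay above the pool (log2 difference 0.71, adjusted p = 0.364), and centring the arrays turned the first to 0.26, so no direction is given.

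Cd55, decay-accelerating factor, which dismantles complement convertases on membranes, had 3 probe sets with different results. The brightest read 999, 2769 and 2136 in the ureters, against 697 in the pool (log2 difference 1.36 ± 0.62, adjusted p = 0.247). A dimmer one read 2356, 1198 and 1973 in the ureters, against 158 in the pool, and was 10.5-fold higher (log2 difference 3.39 ± 0.51, adjusted p = 0.0213). The remaining one read 1935, 1321 and 2888 in the ureters, against 608 in the pool (log2 difference 1.66 ± 0.52, adjusted p = 0.123). All 3 ureters lay above the pool on each probe set, as they did in 39.9% of all tested genes by the brightest probe set. The 3 probe sets were read on the same arrays and are not independent. Their average was called higher (log2 difference 2.14, adjusted p = 0.0151), whereas the gene's brightest probe set was not.

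**Figure D4:**
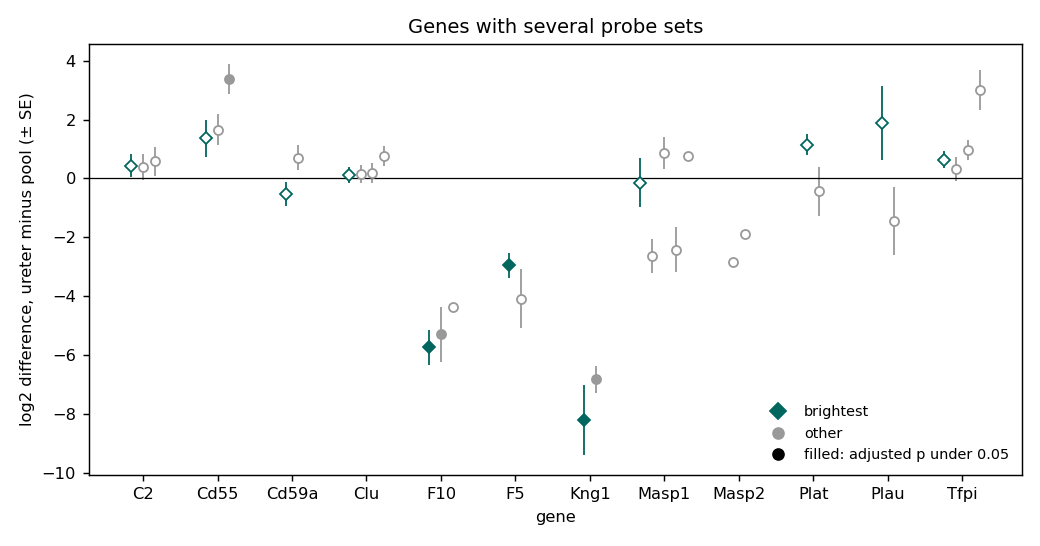
Log2 difference of ureter minus whole-newborn pool (y axis, bars ± SE for tested probe sets) for the 12 genes with more than 1 probe set; diamonds mark the brightest and filled symbols passed an adjusted p of 0.05. Probe sets of Kng1, F10 and F5 all lie below 0, those of Tfpi, Cd55, Clu and C2 all lie above 0, and those of Masp1, Plat, Plau and Cd59a lie on both sides.

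The 3 ureters were also compared with one another. Levels ranged over more than 2-fold among ureters in 14 of 26 liver-made members (53.8%) and in 2 of 15 locally made members (13.3%), against 24.8% of all tested genes. Readings at background have no order, and 6 of the 26 liver-made members had all 3 ureters above it. Of those 6, Cfb, Cfi and Masp1 ranged over more than 2-fold, against 17.5% of the 11700 tested genes with all ureters above background. The difference between these shares was not tested. Fgg had the largest SD among ureters (2.68 on the log2 scale), followed by Fga (2.17), Plau (1.80) and Kng1 (1.68). Of these 4 genes Plau was above background in all 3 ureters, Fgg and Kng1 in ureters 2 and 3, and Fga in ureter 3.

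Genes of the hepatocyte and nephron lists also varied among the ureters. Afp read 160, 6646 and 4623 in ureters 1 to 3, and Alb was likewise lowest in ureter 1, although Ttr was highest there. The nephron list was lowest in ureter 1 by its sum, with 398, 9183 and 4057 in the ureters against 6854 in the pool: Umod, for example, read 52.5, 2019 and 956 in the ureters and 2001 in the pool. None of the 5 tested nephron genes was called in the comparison of ureters with the pool, and 1 of them, Pvalb, had an unadjusted p under 0.05. Without ureter 2, 1 was lower. The part of these markers in the spread of Fga, Fgg, Kng1, Serpinf2, Cfi and Plau was not tested. Fgb, Plg, F11, F12 and F13b were at background in all 3 ureters.

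**Figure D5:**
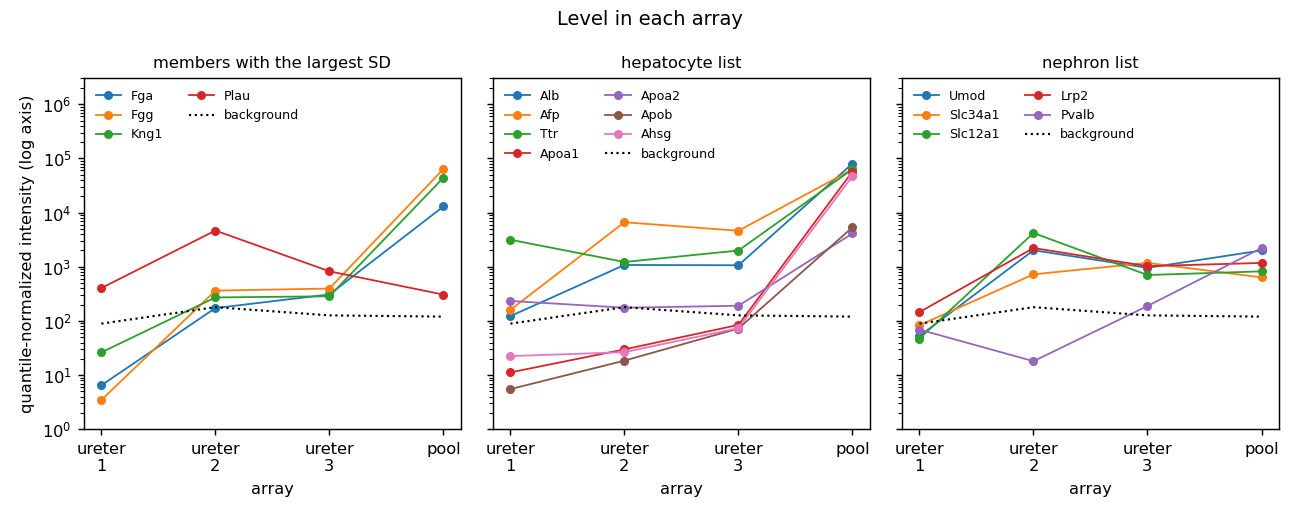
Quantile-normalized intensity (log axis) on each array of the 4 members with the largest SD among ureters, of the hepatocyte list and of the nephron list; lines join the readings of 1 gene and the dotted line is the background of each array. Fgg, Kng1, Alb, Afp, Umod and Slc12a1 are lowest in ureter 1, while Ttr is highest there and Apoa1, Apob and Ahsg lie below background in all ureters.

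Other genes of these pathways were taken from lists by role. All 7 tested of 11 other protease inhibitors and plasma proteins were lower in ureter, against 4.85% of all tested genes. Their median log2 difference was -5.23, and 3 of the 7 were called without ureter 3. On the pool all 7 were above background, and on ureters 1, 2 and 3 this held for 4, 1 and 4 of them. They passed the filter mainly through the pool and had little room to come out higher, so the count is not like for like with all tested genes. Pzp, a broad protease inhibitor made by mouse liver, read 36.4, 94.2 and 274 in the ureters and 19211 in the pool (log2 difference -7.40 ± 0.96, adjusted p = 0.0152, and -6.60 without ureter 1). Hrg, histidine-rich glycoprotein, was at background in every ureter, at 58.7, 10.8 and 8.28, against 5310 in the pool, at least 38.2-fold lower (log2 difference -7.37 ± 0.98, adjusted p = 0.0158, and 0.0518 without ureter 3). Vtn, vitronectin, read 141, 151 and 518 in the ureters and 17963 in the pool (log2 difference -6.25 ± 0.78, adjusted p = 0.0142). A2m, another broad protease inhibitor, differed by -5.23 ± 1.02 (adjusted p = 0.0386, and 0.0564 without ureter 3). No ureter reading of these 4 genes came near the pool.

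Of 19 tested among 29 other complement genes 1 was lower (5.26%, near the 4.85% of all tested genes) and 0 were higher (against 3.04%). The median log2 difference was -0.17. The count of lower genes was 2, 3 and 0 without ureters 1, 2 and 3. C8b, partner of C8a in the attack pore, was at background in every ureter, at 31.5, 7.45 and 38.5, against 1659 in the pool. It was at least 12-fold lower (log2 difference -5.57 ± 0.95, adjusted p = 0.0277, and 0.0832 without ureter 3). Early classical pathway genes were well above background in ureter and pool. C1s1, a protease of the C1 complex, read 18594, 9102 and 10316 in the ureters, all above the 8141 of the pool (log2 difference 0.56 ± 0.43, adjusted p = 0.479). C1qa, a recognition chain of the same complex, read 1035, 922 and 1095 in the ureters, just below the 1142 of the pool (log2 difference -0.17 ± 0.40, adjusted p = 0.843).

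Receptors, platelet genes and genes that process clotting factors gave 0 calls among 14 tested of 18 in the limma fit. Over all tested genes 4.85% were lower and 3.04% were higher. None of the 14 had an unadjusted p under 0.05. Their median log2 difference was -0.28, within a range of -1.27 to 0.81. The list includes the thrombin receptor F2r, at 28315, 50328 and 42363 in the ureters around 38525 in the pool, and Vkorc1, which recycles vitamin K for the clotting factors, at 11549, 11500 and 10987 in the ureters, below the 13929 of the pool. Neither was called (log2 differences 0.03 ± 0.32 and -0.30 ± 0.22, adjusted p = 0.972 and 0.478). Of the platelet and megakaryocyte markers, 1 of 3 tested was lower, Ppbp (33.3%, against 4.85% of all tested genes). The list summed to 13768, 10192 and 11134 in the ureters and 15062 in the pool. None of these markers was called without ureter 3. Adipocyte markers had 2 of 3 tested lower (66.7%, against 4.85% of all tested genes). Their sums were 17424, 27214 and 35589 in the ureters and 95764 in the pool. The 2 lower genes, Adipoq and Ucp1, were at background in all 3 ureters. Both passed the filter through the pool, so these shares are not like for like.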

How the data were processed

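The authors deposited 1 linear intensity per probe set and array, and GCOS is named in the submitters' processing notes without a version. Their values have a 2% trimmed mean common to all arrays; the sources used here do not give the background subtraction. An offset of 12.23, the 10th percentile of all intensities, was added before log2, and arrays were quantile normalized over 45101 probe sets; printed intensities have the offset removed again. Without 64 controls and the dimmest 40% by the mean of the ureter mean and the pool value, 27022 probe sets remained. Ureters (n = 3) and pool (n = 1) were compared with limma 3.58.1 (R 4.3.3), lmFit and eBayes (intensity trend; two-sided), 2 residual degrees of freedom, Benjamini-Hochberg adjusted over all probe sets; the code was tested on simulated data. Folds on this scale understate changes of dim probe sets, and levels of different probe sets were not compared by test.

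Symbols came from the platform annotation: 34958 probe sets carried 1 symbol, 932 several and 9160 none. All 66 member probe sets matched the RefSeq table, and 0 symbols changed. A gene was read from its brightest tested probe set. Where all ureters were at background, the bound sets the pool against the mean of the ureter arrays' background levels on the log2 scale.

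Members, lists and tests were chosen with earlier results of these data known. Values are given per role for up to 5 called members with the largest difference, up to 3 bright others, the 4 with the largest SD among ureters and, from other lists, up to 4 called genes; further genes were chosen after their values were seen. Alternatives were the deposited scaling, median centring, offsets of 1 and 50, no filter, averaged probe sets, no trend, and each ureter left out. The number of arrays limits precision.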

Additional observations from a re-analysis of the deposited data

How the results depend on the processing

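All 17 called members kept their sign under each of the 10 alternatives that tested them (9 for F12, which was not tested with an offset of 1), and 8 of them, F2, F10, F13b, Fgb, Plg, Serpinc1, Serpind1 and Proc, kept the call in each. Calls were lost for 9 members without ureter 3, 6 without the trend, 3 each with centring, an offset of 1 or no filter, and 1 without ureter 2; calls were gained for 6 with averaging, 4 with an offset of 50, 3 with centring, and 2 each without the trend, ureter 1 or ureter 2. With 1 ureter left out, between 8 and 15 of the 17 liver-made coagulation and fibrinolysis genes were lower (8 without ureter 3), between 0 and 3 liver-made complement genes were lower (0 without ureter 3), and 0 or 1 locally made gene was higher. Liver-made complement had 1 lower gene without the filter and 1 without the trend, against 3. The 1 higher locally made gene became 0 with median centring, 0 without the trend and 3 with probe sets averaged.

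The median of liver-made members, -5.31, was -4.70 with median centring and -5.73 to -4.76 with a ureter left out; that of locally made members, 0.70, was 1.32 with centring and 0.59 to 0.85 with a ureter left out. The median of all tested genes was 0.10, against 0.68 with centring and -0.05 with the deposited scaling.

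Signs turned, with no call on either side, for C9 with the deposited scaling (-0.48), for Masp1 with centring (0.26) and without ureter 1 (range with a ureter left out -0.77 to 0.34), for F13a1 with centring (0.66) and without ureter 3 (range -0.31 to 0.0077), for Tfpi2 with centring (0.23), and for Cd59a with centring (0.26) and averaging (0.083).

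Over all probe sets 747 were higher and 961 lower, so 43.7% of calls were higher. The deposited scaling gave 444 higher (33.5% of calls), no filter 422, and no trend 272. Leaving out a ureter gave 49 to 948 higher and 268 to 1234 lower, fewest without ureter 3. The causes were not tested. No paired analysis was possible because the pool is 1 array, so the groups share fewer than 2 replicate numbers, and those were given in accession order.

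With 3 ureters and 1 pool array, a member that missed the threshold is not shown to be equal. Between 53.8% and 66.7% of probe sets were above background on the ureter arrays and 61.2% on the pool, and readings below it have no order.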

Other observations

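Vwf and Thbs1, picked after their values were seen, ranged widely among the ureters, whereas the list of 6 endothelial markers had a median SD of 0.22 on the log2 scale. Vwf, the endothelial protein that carries factor VIII and tethers platelets, read 267, 2809 and 870 in ureters 1, 2 and 3, against 2129 in the pool. Thbs1, a matrix protein of platelets and stroma, read 1107, 7681 and 1654 in the ureters, against 1949 in the pool. Both were highest in ureter 2, as Plau was at 4666, and neither passed the threshold (log2 differences -1.27 ± 1.16 and 0.31 ± 1.02, adjusted p = 0.563 and 0.892, limma). A dimmer Thbs1 probe set had a narrower spread, at 1437, 2088 and 1701 in the ureters, all above the 870 of the pool, and was not called (log2 difference 0.98 ± 0.41, adjusted p = 0.214).

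Among the other complement genes the lectin pathway collectins differed from each other. Colec10 read 455, 155 and 220 in the ureters, all below the 1619 of the pool, and Colec11 read 7645, 12526 and 9089 in the ureters, all above the 6175 of the pool. Neither passed the threshold (log2 differences -2.63 ± 0.68 and 0.63 ± 0.34, adjusted p = 0.0774 and 0.325), and the difference between the collectins was not tested.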
